A study of Mus musculus with 2 samples.

Results

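The collagen genes are the 44 genes of the annotation whose symbol is Col, a number, the letter a and a number, such as Col1a2, of 32285 genes in all. Of these, 38 had at least 1 unique molecular identifier (UMI, 1 tag per captured transcript) in the library and 6 had none (Col19a1, Col28a1, Col4a5, Col6a4, Col6a5 and Col6a6). They were described in 189 stromal barcodes, which are droplets in which the proteoglycan genes Prg4 and Dcn held 0.5% or more of the gene UMIs, of 2349 barcodes in all, and 35 of the 44 genes had a UMI there. Neither Prg4 nor Dcn is a collagen gene, so the choice of barcodes used no collagen value.

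The study compared bone-lining cells, sorted as osteal macrophages on CD11b with F4/80 or CD68, of female BALB/c mice that had been ovariectomized (OVX) or sham operated. Surgery was at 10 weeks of age, and femurs and vertebrae were taken 4 weeks later and freed of periosteum. The epiphyses of the femurs were cut off and their marrow cavities washed out. The bone was then digested with trypsin and afterwards overnight with collagenase D. Cells of 20 mice per condition were pooled, the OVX pool was marked with hashtag antibody 1 and the sham pool with hashtag antibody 2, and both pools were run as 1 droplet library with 3′ chemistry. The study loaded 1037 OVX and 1084 sham cells, and the matrix held 2349 barcodes, of which 1059 were assigned to OVX, 981 to sham, 231 to neither hashtag and 78 to both.

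Collagens are triple helices of 3 chains, each chain the product of its own gene. Fibrillar collagens form the load-bearing fibrils, type II in cartilage and type I in bone, tendon and skin, with types V and XI inside them. Type VI forms beaded filaments around cells, type X is made by hypertrophic chondrocytes of the growth plate, and type IV makes the network of basement membranes, such as those of vessels. Macrophages and neutrophils are known as cells that take up and degrade collagen rather than as a main source of its transcripts.

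With 1 pool per condition there was no replicate, so no test between conditions could be made, and cells were not counted as replicates. Levels are summed UMIs scaled to 1000000 gene UMIs (CPM) with exact 95% Poisson intervals, and ratios have exact conditional intervals, all covering counting error only. UMIs count 3′ ends, so levels were not divided by gene length, and comparisons between genes are comparisons of captured 3′ ends. The stromal barcodes were deep (lowest 546, median 20523, highest 141565 gene UMIs), against a median of 4022 in the 2160 other barcodes.

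In the stromal barcodes the collagen genes held 19605 UMIs, 0.393% of all gene UMIs or 3927 CPM (95% interval 3873 to 3983). The share ranged over barcodes from 0 through a median of 0.340% to 1.62%, and 184 of 189 barcodes had a collagen UMI. For comparison, the genes that chose the barcodes, Prg4 (lubricin) and Dcn (decorin), stood at 28390 and 17971 CPM. The type VI genes held 46.2% of the collagen UMIs and the 11 fibrillar genes 42.3%, while the short-chain genes, nearly all Col10a1, held 6.67%. The fibril-associated genes held 2.91%, the multiplexins 1.43% and the basement membrane genes 0.408%.

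Col2a1, the chain of type II collagen of cartilage (chr15:97975602-98004695, minus strand, GRCm38), was the highest fibrillar gene at 936 CPM (910 to 964), with UMIs in 164 of the 189 barcodes. Its level in single barcodes ran from 0 through a median of 584 CPM to 6499 CPM. The next fibrillar genes were Col5a2 at 175 CPM (164 to 187) and Col11a1 at 162 CPM (151 to 174), whose products are minor chains of fibrils and whose intervals overlapped. Col5a1 followed at 114 CPM and Col5a3 at 85.7 CPM, so all 3 type V chains were detected in these barcodes. Col27a1, a fibrillar collagen of developing cartilage, stood at 63.5 CPM, and Col11a2, the second type XI chain, at 38.1 CPM.

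The genes of type I collagen, the main protein of bone matrix, were low. Col1a2 had 232 UMIs in 54 barcodes (46.5 CPM, 40.7 to 52.9), and Col1a1 had 90 UMIs in 18 barcodes (18.0 CPM, 14.5 to 22.2). Col3a1, which accompanies type I in soft tissue, had 101 UMIs in 20 barcodes. Col1a1 and Col1a2 UMIs stood at a ratio of 0.388 (0.301 to 0.497), although 2 α1 chains join 1 α2 chain in the type I molecule. Both genes were seen together in 13 barcodes, Col1a2 alone in 41 and Col1a1 alone in 5. Col2a1 UMIs were 20.1 times as many as Col1a2 UMIs (17.7 to 23.1).

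The 3 chains of the classical type VI heterotrimer were all high and were found in nearly the same share of barcodes. Col6a3, the long chain, had 851 CPM (826 to 877) in 171 barcodes. Col6a1 had 521 CPM (501 to 541) in 171 barcodes and Col6a2 had 444 CPM (426 to 463) in 167. Col6a1 and Col6a2 were seen together in 163 barcodes, and their UMI ratio was 1.17 (1.11 to 1.24). Medians over single barcodes followed the same order, with 728, 453 and 375 CPM, whereas the alternative chains Col6a4, Col6a5 and Col6a6 had no UMI.

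Col10a1, whose product marks hypertrophic chondrocytes, had 1296 UMIs (260 CPM, 246 to 274) but was unevenly spread. It had UMIs in 40 barcodes, 21.2% of the total, and 4 barcodes held 50% of them. The highest barcode reached 5116 CPM with 234 UMIs, and the median barcode was at 0. Col2a1 had UMIs in 39 of the 40 barcodes with Col10a1. The type IX chains that coat type II fibrils were lower, with Col9a3 at 42.9 CPM and Col9a2 at 25.2 CPM, whereas Col9a1 had 5 UMIs. Among the other genes with 100 or more UMIs, Col15a1, a multiplexin, was at 55.7 CPM and Col16a1, a fibril-associated collagen, at 26.4 CPM.

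Concentration in few barcodes was a feature of some collagens and not of others. The number of barcodes that held 50% of a gene's stromal UMIs was 33 for Col6a3, 31 for Col6a2, 30 for Col6a1 and 19 for Col2a1, but 5 for Col1a2 and 3 each for Col1a1 and Col3a1. One barcode held 58 of the 232 Col1a2 UMIs and another barcode 23 of the 90 Col1a1 UMIs. Genes of low count are bound to sit in fewer barcodes, yet Col10a1, with more UMIs than Col11a1 (811 UMIs, 26 barcodes for 50%), was the more concentrated of the pair.

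**Figure D1:**
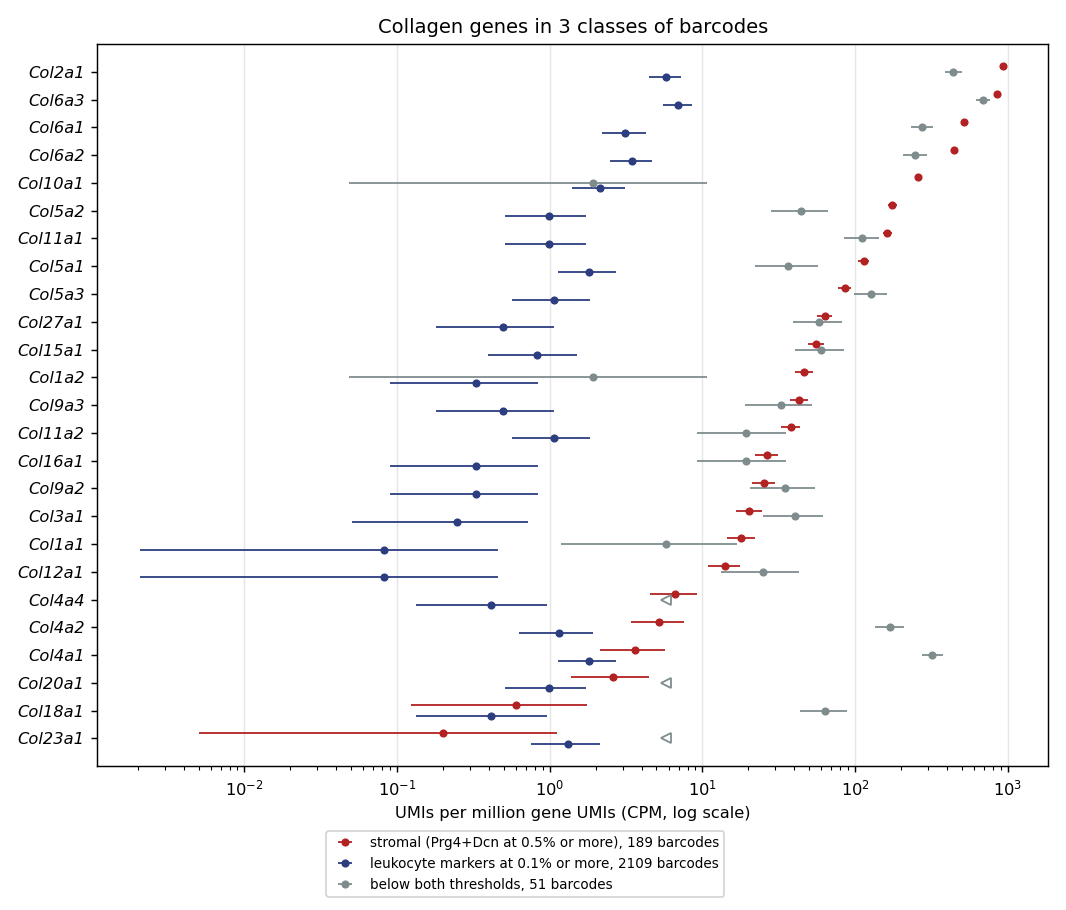
Level of each collagen gene with 10 or more UMIs in the stromal or in the other barcodes (x axis, CPM on a log scale; y axis, gene) in 3 classes of barcodes. Points are summed levels, lines exact 95% counting intervals, and open triangles mark a class with no UMI, drawn at the level of 3 counts; Col2a1 is at 936 CPM in stromal barcodes and 5.75 CPM in barcodes with leukocyte markers, whereas Col4a1 and Col4a2 are highest in the 51 barcodes below both thresholds.

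The remaining collagens had, like Col1a1, fewer than 100 stromal UMIs each. Col12a1 had 70, Col4a4 33, Col4a2 26, Col4a1 18 and Col20a1 13 UMIs. A further 12 genes had 1 to 9 UMIs, and 9 had none in the stromal barcodes, where a count of 0 allows up to 0.601 CPM. The type IV genes together had 80 UMIs in the stromal barcodes, 16.0 CPM (12.7 to 19.9).

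The label of the sort was set against marker genes of the stromal barcodes. Genes of chondrocytes other than collagens summed to 4231 CPM, with Sox9, the chondrocyte transcription factor, at 1131 CPM, Comp at 1035 CPM and Acan (aggrecan) at 772 CPM, and 9 of 10 had a UMI (Matn1 had none). Of 9 osteoblast and osteocyte genes, 4 had no UMI (Bglap, Bglap2, Phex and Sost) and the list summed to 23.6 CPM. The 5 synovial lining genes summed to 1698 CPM, of which Hbegf held 1286, the 6 tenocyte genes to 246 CPM and the 9 fibroblast genes to 214 CPM, with Kera, Ly6a and Mfap5 at no UMI. Of 5 endothelial genes, Cdh5 and Emcn had none and the list summed to 2.00 CPM. The 8 leukocyte genes, with Ptprc (CD45) among them, summed to 118 CPM against 8843 CPM in barcodes that carried them, and the 5 macrophage genes to 31.5 CPM against 95.2 CPM. Of the macrophage genes, Adgre1 (the gene of F4/80) and C1qa had no UMI, whereas Cd68 had 66 UMIs in 41 barcodes, Mertk 69 UMIs in 42 and Csf1r 22 UMIs in 18. Of the 189 stromal barcodes, 3 had leukocyte genes at 0.1% or more of their UMIs and 5 were over both hashtag cutoffs. No doublet caller was run.

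Promoter sequence is shown for Col6a3, which was high in most stromal barcodes, and for Col10a1, which was high in few, since their spread over barcodes differed. Each line gives the 250 bases before the start of transcription as listed by RefSeq (GRCm38.p6), 5′ to 3′ on the gene's strand, at chr1:90843972-90844221 (minus) and chr10:34389731-34389980 (plus). Capitals mark the TATA box letters TATAAA where they occur.
Col6a3: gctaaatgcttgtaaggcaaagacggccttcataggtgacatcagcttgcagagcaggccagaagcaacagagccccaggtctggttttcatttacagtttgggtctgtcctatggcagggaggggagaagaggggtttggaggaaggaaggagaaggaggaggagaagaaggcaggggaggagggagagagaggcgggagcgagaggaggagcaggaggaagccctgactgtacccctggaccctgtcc
Col10a1: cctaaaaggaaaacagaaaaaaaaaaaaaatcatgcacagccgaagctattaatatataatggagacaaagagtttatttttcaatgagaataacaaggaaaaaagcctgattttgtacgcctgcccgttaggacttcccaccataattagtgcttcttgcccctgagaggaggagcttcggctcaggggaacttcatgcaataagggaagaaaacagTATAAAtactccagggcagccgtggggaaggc

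The Col10a1 window held TATAAA once, beginning 32 bases before the start, and had 41.6% G and C. The Col6a3 window held no TATAAA and had 57.2% G and C. Searched on both strands, TATAAA was found for 5 of the 35 collagen genes with a listed promoter (Col10a1, Col11a2, Col13a1, Col17a1 and Col3a1) and in 12.4% of 32851 promoter windows of that length. GGGCGG, the letters of a GC box, was found for 21 of the 35 genes and in 32.7% of all windows. CCAAT was found for 13 of them and in 33.8% of all windows. None of these 3 motifs contains another, and a match describes the letters only.

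The 2160 barcodes below the stromal threshold held 1932 collagen UMIs, 152 CPM (146 to 159), or 0.0388 of the stromal level (0.0370 to 0.0406). These UMIs were gathered in few barcodes. The highest 12 barcodes held 73.8% of them, and 1 OVX barcode held 25.5%. Of the 3 barcodes just below the threshold, with Prg4 and Dcn at 0.382%, 0.409% and 0.495%, collagen shares were 0.0778%, 0 and 0.207%, and of the 3 just above it, at 0.573%, 0.610% and 0.622%, they were 0.191%, 0.657% and 0.194%.

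Barcodes below the threshold were therefore split, after these values were seen, by the 8 leukocyte genes. In the 2109 barcodes with leukocyte genes at 0.1% or more of gene UMIs, collagen had 455 UMIs, 37.4 CPM (34.0 to 41.0), 0.00952 of the stromal level (0.00866 to 0.0104). In the other 51 barcodes it had 1477 UMIs, 2845 CPM (2701 to 2993). After each barcode was thinned to 1000 gene UMIs, 3.51% of leukocyte-marker barcodes and 91.0% of stromal barcodes had a collagen UMI (17.6% and 97.4% without thinning), with 144 and 11 shallower barcodes left out. Collagen levels in OVX and sham leukocyte-marker barcodes, 37.3 CPM (32.7 to 42.3) and 37.6 CPM (32.3 to 43.4), differed by less than their counting intervals.

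**Figure D2:**
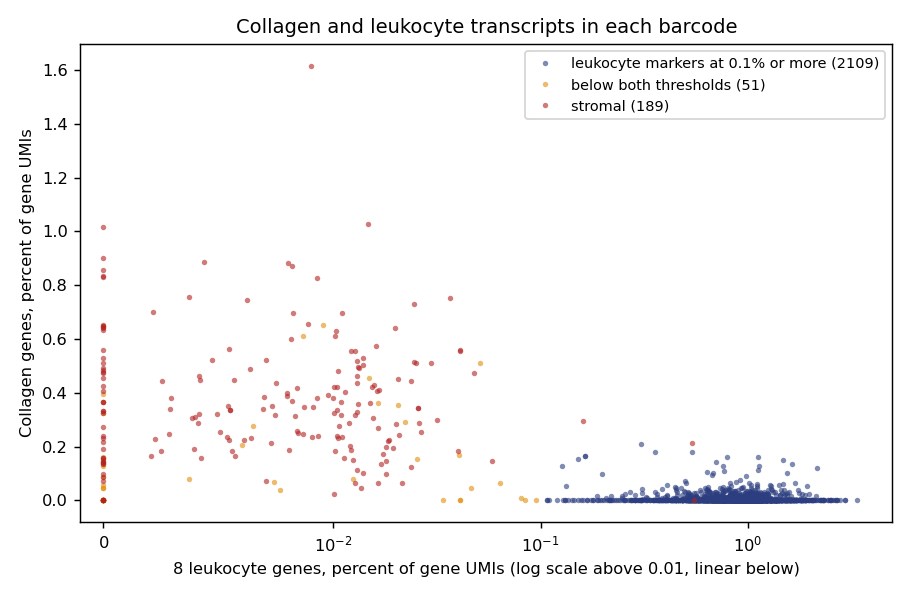
Each of the 2349 barcodes by the share of its gene UMIs from 8 leukocyte genes (x axis, percent, log scale above 0.01% and linear below) and from collagen genes (y axis, percent). Stromal barcodes reach 1.62% collagen, barcodes with leukocyte genes at 0.1% or more reach at most 0.210%, and the 51 barcodes below both thresholds reach 0.650%. The leukocyte-marker barcode at 0.210% also has UMIs of endothelial genes.

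Most collagens stood in the leukocyte-marker barcodes in about the proportions they had in the stromal barcodes. Col6a3 was at 6.90 CPM and Col2a1 at 5.75 CPM there, with ratios to the stromal level of 0.00811 (0.00646 to 0.0101) and 0.00614 (0.00478 to 0.00778). The 70 Col2a1 UMIs were spread over 68 barcodes and the 84 Col6a3 UMIs over 82, nearly all as single UMIs. Free RNA in the droplets can give such single UMIs, and its part in these levels was not tested.

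For 5 collagens with 10 or more UMIs there, the ratio to the stromal level lay wholly above that of the sum. The minimum counted leukocyte-marker UMIs, so a gene passed it through that class alone, and these ratios are descriptions. Col2a1, Col5a1, Col5a2, Col5a3, Col6a1, Col6a2, Col6a3, Col10a1, Col11a1 and Col15a1 also had 10 or more UMIs there, without such a ratio. The share of all genes meeting this rule was not counted. Col11a2 had 13 UMIs and a ratio of 0.0281 (0.0147 to 0.0492). Col20a1, a fibril-associated collagen, had 12 UMIs in 11 barcodes against 13 in the stromal barcodes, a ratio of 0.379 (0.158 to 0.900). The 11 barcodes had neutrophil genes at 184748 CPM, and cycling genes at 1001 CPM against 162 CPM in all leukocyte-marker barcodes. They were also deeper, with a median of 11159 gene UMIs against 4058, and the part of depth was not tested. Cycling genes were at 327 CPM in the 68 leukocyte-marker barcodes with Col2a1 and at 154 CPM in the 82 with Col6a3. Col23a1, a transmembrane collagen, had 16 UMIs in 16 leukocyte-marker barcodes, 7 of them OVX and 9 sham, and 1 UMI in the stromal barcodes. The Col23a1 level of 1.31 CPM (0.751 to 2.14) was 6.56 times the stromal level, with an interval from 1.02 to 275. The 16 barcodes, with a median of 7592.5 gene UMIs, had a neutrophil gene level of 321806 CPM, against 257239 CPM in all leukocyte-marker barcodes. Col4a1 and Col4a2 were the other 2.

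Col4a1 and Col4a2 encode the chains of the common type IV trimer, and RefSeq places their starts 21 bases apart on opposite strands of chromosome 8. Col4a1 had 18 UMIs in stromal barcodes, 22 in leukocyte-marker barcodes and 167 in the 51 barcodes below both thresholds. Col4a2 had 26, 14 and 88. Among the 2160 barcodes below the threshold, 6 had UMIs of 3 or more of 5 endothelial genes (Pecam1, Cdh5, Kdr, Emcn and Egfl7), and these 6 held 133 of the 189 Col4a1 UMIs and 80 of the 102 Col4a2 UMIs there. They also held 30 of 38 UMIs of Col18a1, whose product carries endostatin in vessel basement membranes, and 26 of 41 of Col15a1. The same 6 barcodes had no UMI of Col2a1 or Col6a3, of which the barcodes below the threshold had 299 and 441. Of the 6, 1 was a leukocyte-marker barcode, and it held 17 of the 22 Col4a1 and 4 of the 14 Col4a2 UMIs of that class. No stromal barcode had 3 of the endothelial genes.

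A single barcode below the threshold, in the sham pool, held 44 Col4a1, 9 Col4a2 and 21 Col5a3 UMIs with 427 UMIs of Thbs4, a tendon matrix gene, and no endothelial UMI. The barcode with the most collagen below the threshold, in the OVX pool, held 174 Col6a3 and 105 Col2a1 UMIs, with chondrocyte genes at 2417 CPM and Prg4 and Dcn at 0.260% of its UMIs. These barcodes were described because their counts were high and were chosen after the values were seen.

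Among collagen genes with 50 or more UMIs in the whole library, 19 of 21 were 10-fold or more higher in the stromal barcodes than in all others, against 9.95% of 10089 genes. The minimum counted stromal UMIs, so a gene could pass it through them alone. Col1a1 did so with 90 stromal and 4 other UMIs, and Col10a1 with 1296 and 27. Both shares are therefore descriptions of the genes that passed. The other 2 were Col4a1 and Col4a2, which were higher outside the stromal barcodes. The remaining 23 collagen genes did not reach 50 UMIs.

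OVX and sham, the conditions of the study, were compared in the stromal barcodes. Of the 189 barcodes, 34 were OVX, 44 sham, 106 over neither hashtag cutoff and 5 over both. Hashtag counts were low in them, with medians of 91 and 437 for the OVX and sham antibodies against 623 and 1018 in leukocyte-marker barcodes. Summed collagen in the OVX barcodes was 4600 CPM (4477 to 4726), and in the sham barcodes it was 3587 CPM (3485 to 3691), a ratio of 1.28 (1.23 to 1.33). The 106 barcodes with no hashtag had 3680 CPM. Shares in single barcodes overlapped widely, from 0.0454% through a median of 0.369% to 0.702% in OVX and from 0 through 0.365% to 1.62% in sham. With equal weight per barcode the means were 3994 and 3777 CPM, so the ratio fell to 1.06.

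Genes other than collagens also differed between OVX and sham in the same barcodes. Of the genes that chose the barcodes, Prg4 was higher in the OVX ones, with 25833.5 CPM against 17614 CPM. Dcn was nearly level, with 17799.8 CPM for OVX against 18110.2 CPM for sham. The 6 neutrophil genes had 4552 CPM in the OVX stromal barcodes against 1582 CPM in the sham ones, the 8 leukocyte genes at 196 and 114 CPM, and 3 cycling genes at 94.5 and 0.762 CPM. Chondrocyte genes without collagens stood at 3614 and 4351 CPM. The OVX UMIs of the cycling genes sat in few barcodes, with 54 of Top2a in 2, 22 of Mki67 in 4 and 33 of Stmn1 in 4 of the 34 barcodes. The part of these genes in the collagen ratios was not tested.

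**Figure D3:**
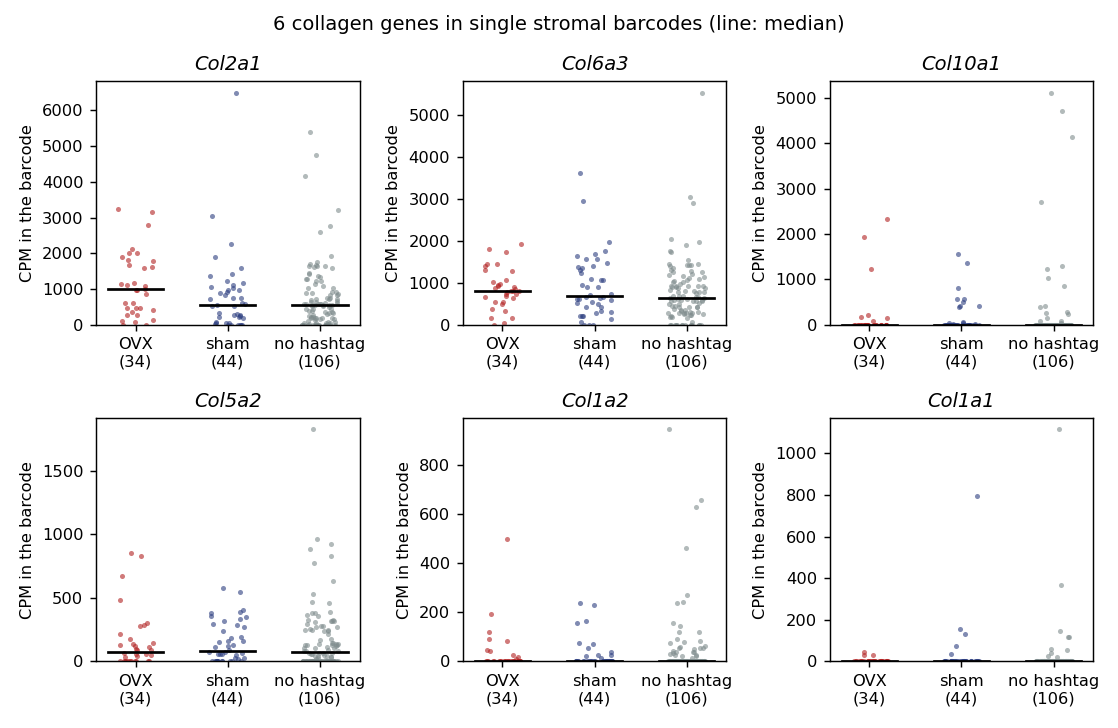
Levels of 6 collagen genes in single stromal barcodes (y axis, CPM in the barcode) by hashtag assignment (x axis, with the number of barcodes). Each point is 1 barcode and each line the median; for Col2a1 the OVX median is 987 CPM and the sham median 554 CPM, and for Col10a1, Col1a2 and Col1a1 the medians of both conditions are 0.

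By class, the fibrillar genes had 2100 CPM in OVX against 1478 CPM in sham, a ratio of 1.42 (1.34 to 1.51), and the type VI genes at 2001 and 1779 CPM, a ratio of 1.12 (1.06 to 1.19). The fibril-associated genes had a ratio of 1.90 (1.51 to 2.39) and the short-chain genes one of 1.87 (1.55 to 2.27). The multiplexins were lower in OVX, with 42.5 and 77.0 CPM and a ratio of 0.552 (0.384 to 0.784). The type IV genes had 25 and 26 UMIs, and their ratio of 1.09 had an interval from 0.606 to 1.97.

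Col2a1 held most of the fibrillar difference in CPM. It had 1562 UMIs in OVX and 1000 in sham, 1355 CPM (1288 to 1423) and 762 CPM (716 to 811), a ratio of 1.78 (1.64 to 1.93). Single barcodes ran from 0 through 987 to 3242 CPM in OVX and from 0 through 554 to 6499 CPM in sham, so the ranges overlapped while the median was higher in OVX. The ratio was 1.71 without the barcode with most Col2a1 UMIs in each condition and 1.39 with equal weight per barcode. The first of these settings kept the deepest sham barcode, which had 141565 gene UMIs and no Col2a1 UMI. The ratio without that barcode was not taken. The level in barcodes with no hashtag was 832 CPM.

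Col9a2 and Col9a3, whose products lie on the fibril surface, and Col11a2 of type XI went the same way as Col2a1. Col9a2 had 50 UMIs in OVX and 20 in sham, 43.4 CPM (32.2 to 57.2) and 15.2 CPM (9.31 to 23.5), a ratio of 2.84 (1.66 to 5.04). Col9a3 had a ratio of 1.83 (1.27 to 2.68) and Col11a2 one of 1.92, with 59 UMIs in OVX and 35 in sham and an interval that began at 1.24. All 3 stayed above 1 with equal weight per barcode, at 2.39, 1.59 and 1.43. Col11a1, the major type XI chain, had 167 CPM in OVX against 164 CPM in sham, a ratio of 1.02 (0.837 to 1.25), and Col16a1 had a ratio of 1.45 with an interval (0.920 to 2.31) that also included 1.

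The other chains of the fibrils differed less or rested on few barcodes. Col5a3 had a ratio of 1.81 (1.41 to 2.34), but one of 1.10 with equal weight per barcode. Col5a2 had one of 0.815 (0.666 to 0.996), which became 1.05 with equal weight, and Col5a1 one of 0.977 (0.766 to 1.25). Col27a1 had 78.9 CPM in OVX against 60.2 CPM in sham, a ratio of 1.31 (0.959 to 1.79), and 0.772 with equal weight. Of the type VI genes, Col6a3 had a ratio of 1.20 (1.10 to 1.30), which turned to 0.942 with equal weight, whereas the intervals of Col6a1 (0.927 to 1.15) and Col6a2 (0.980 to 1.24) included 1.

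The Col10a1 difference rested on a single OVX barcode. Col10a1 had 292 UMIs in 7 OVX barcodes, of which 211 were in 1 barcode, and 177 UMIs in 14 sham barcodes, of which 58 were in 1. Its OVX level was 253 CPM (225 to 284) and its sham level 135 CPM (116 to 156), a ratio of 1.88 (1.55 to 2.28). Without the highest barcode of each condition the ratio was 0.814 (0.606 to 1.09), on the other side of 1. In barcodes with no hashtag it was 292 CPM.

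Type I collagen was lower in OVX by summed counts. Col1a2 had 21 UMIs in 10 OVX barcodes and 55 in 12 sham barcodes, 18.2 CPM (11.3 to 27.8) and 41.9 CPM (31.6 to 54.6), a ratio of 0.434 (0.250 to 0.730). Of these Col1a2 UMIs, 1 OVX barcode held 10 and 1 sham barcode held 23. Without these barcodes the Col1a2 ratio was 0.390 (0.177 to 0.794). With equal weight per barcode the Col1a2 ratio turned to 1.30. Col1a1 had 3 UMIs in 3 OVX barcodes and 35 in 5 sham barcodes, 2.60 CPM (0.537 to 7.60) and 26.7 CPM (18.6 to 37.1). The Col1a1 ratio was 0.0975 (0.0192 to 0.309) and 0.120 with equal weight, on 38 UMIs, under the minimum of 50. All 35 sham UMIs of Col1a1 came from 1 of the 3 clusters described next, and 13 of them from 1 barcode. Col15a1, a basement membrane zone collagen, had 41.6 CPM in OVX against 76.2 CPM in sham, a ratio of 0.546 (0.379 to 0.778). The Col15a1 ratio was 0.781 with equal weight per barcode, and 0.819 (0.566 to 1.16) where conditions were assigned by 80% or more of at least 10 hashtag UMIs. That rule can count barcodes below both hashtag cutoffs as sham.

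**Figure D4:**
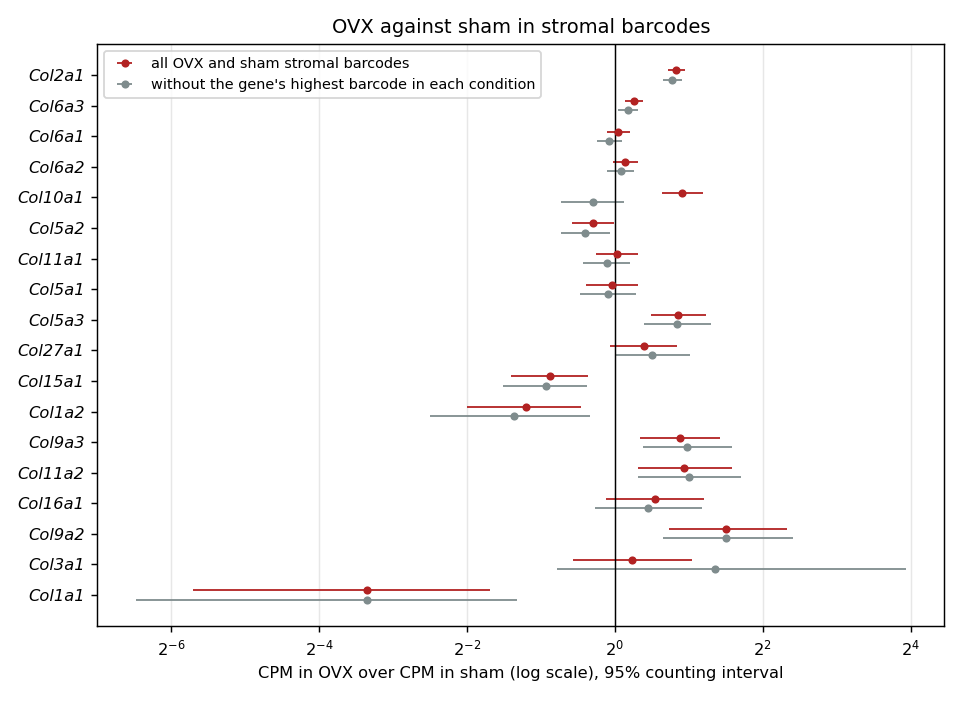
Ratio of the level in OVX to that in sham stromal barcodes (x axis, log scale; line at 1) for the 17 collagen genes with 50 or more UMIs over both, and for Col1a1 with 38. Red points use all 34 OVX and 44 sham barcodes and grey points leave out the gene's highest barcode in each condition, with 95% counting intervals; Col10a1 goes from 1.88 to 0.814, while Col2a1 goes from 1.78 to 1.71.

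Of the 44 collagen genes, 17 had 50 or more UMIs over both conditions and 27 did not. Of the 17, 1 was 2-fold or more higher in OVX (Col9a2), against 1.5% of 5548 genes that passed the minimum, and 1 was 2-fold or more lower (Col1a2), against 1.64%. In all, 13 of the 17 had a ratio above 1 and 4 below, and their median log2 ratio was 0.26, against -0.08 over all genes tested. Among the 13, the intervals of Col6a1, Col6a2, Col11a1, Col27a1, Col16a1 and Col3a1 included 1. With equal weight per barcode Col6a1, Col6a2, Col6a3, Col11a1 and Col27a1 fell below 1, while Col5a2 and Col1a2 rose above it. The share of all genes above 1 was not counted.

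The stromal barcodes were also clustered with every collagen gene, Prg4 and Dcn left out of the clustering genes. This gave 3 clusters of 71, 62 and 56 barcodes, with 14, 11 and 9 OVX and 19, 14 and 11 sham barcodes. Cluster 1 was led by Bmp7 (a bone morphogenetic protein), Mmp13 (collagenase 3), Slurp1 and Igfbp5. Cluster 2 was led by the acute-phase genes Saa1 and Saa2 with Chil1, and had chondrocyte genes at 7614 CPM, against 2212 CPM in cluster 1 and 3462 CPM in cluster 3. Cluster 3 was led by the chemokine genes Cxcl5 and Ccl2 and by Ecm1. The clusters were left unnamed, and since they were made on the same cells, their levels are descriptions.

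Summed collagen stood at 5213 CPM in cluster 1, 3470 CPM in cluster 2 and 2757 CPM in cluster 3. Cluster 1 was highest in Col2a1, at 1467 CPM (1413 to 1522) against 679 and 520 CPM. It was also highest in Col10a1, at 495 CPM against 219 and 3.24 CPM, and in Col5a3, at 179 CPM against 22.5 and 29.8 CPM. Of the 961 Col10a1 UMIs in cluster 1, 234 were in 1 barcode and 211 in another, and 1 more barcode reached 4134 CPM. Col9a3 had 83.5, 31.2 and 3.24 CPM in the clusters in order. Clusters 1 and 2 thus held nearly all UMIs of the cartilage-type chains Col9a3 and Col10a1, of which cluster 3 had 5 UMIs each.

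Cluster 3 was highest in the genes of types I and III and in Col5a2, but not in Col5a1 or Col5a3. Col1a1 had 85 of its 90 UMIs there, 55.1 CPM (44.0 to 68.1), against 2 and 3 UMIs in clusters 1 and 2. Col1a2 had 108 CPM against 17.0 and 21.2 CPM, and Col5a2 had 279 CPM against 163 and 84.8 CPM. Col3a1 had 41.5 CPM in cluster 3, 19.1 CPM in cluster 1 and no UMI in cluster 2. Col15a1 was highest in cluster 2, at 112 CPM against 23.2 and 41.5 CPM. The type VI genes were present in all 3 clusters, with Col6a3 at 1080, 837 and 578 CPM and Col6a2 at 515, 417 and 382 CPM.

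Within each cluster the order of OVX and sham was not always that of the sum. The summed level of Col2a1 was higher in OVX in all 3, with 1872 and 1250 CPM in cluster 1, 799 and 697 CPM in cluster 2 and 610 and 326 CPM in cluster 3. In cluster 2 the intervals overlapped (699 to 908 and 615 to 787). The sham value of cluster 3 included the barcode with 141565 gene UMIs and no Col2a1 UMI. Col10a1 was at 367 and 126 CPM in cluster 1 but at 199 and 316 CPM in cluster 2. Of its 234 OVX UMIs in cluster 1, however, 211 were in 1 barcode. In cluster 3, Col1a2 had 22.3 CPM in OVX against 87.4 CPM in sham, and in cluster 1 it had 18.8 against 8.52 CPM. The cluster 3 values of Col1a2 rested on 5 and 41 UMIs, and 23 of the sham ones were in 1 barcode. The cluster 1 values of Col1a2 rested on 12 and 4 UMIs, with overlapping intervals (9.74 to 32.9 and 2.32 to 21.8). Of the 12 OVX UMIs, 10 were in 1 barcode. The shares of OVX and sham barcodes in the 3 clusters were close, at 41.2% and 43.2% in cluster 1, 32.4% and 31.8% in cluster 2 and, with 9 of 34 and 11 of 44 barcodes, in cluster 3.

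**Figure D5:**
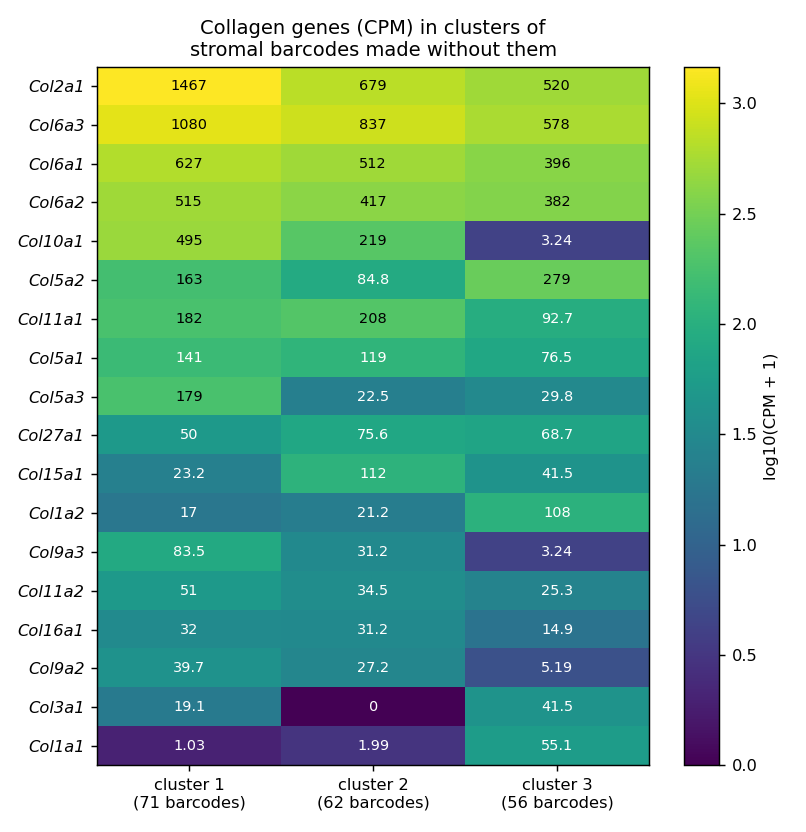
Levels of 18 collagen genes (rows) in 3 clusters of the stromal barcodes (columns) that were made without collagen genes, with the CPM printed in each cell and its log10(CPM + 1) as color. Col2a1, Col10a1, Col5a3 and Col9a3 are highest in cluster 1, Col15a1 in cluster 2, and Col1a1, Col1a2, Col3a1 and Col5a2 in cluster 3.

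The genes that make collagen were measured beside the chains. The 15 genes of prolyl and lysyl modification summed to 1765 CPM in the stromal barcodes and 377 CPM in the leukocyte-marker barcodes. Of them, 7 were 10-fold or more higher in stromal barcodes than in all other barcodes, against 9.95% of all genes with enough UMIs. As for the collagen genes, the minimum counted stromal UMIs, so a gene could pass it through them alone. Both shares are descriptions of the genes that passed. Plod2, which hydroxylates the lysines of telopeptides, was at 249 and 0.822 CPM, and P4ha2, a prolyl hydroxylase subunit, at 118 and 1.07 CPM. P4hb and Ppib, which serve many secreted proteins, were at 285 and 448 CPM in stromal and at 143 and 156 CPM in leukocyte-marker barcodes. The 5 folding and export genes summed to 809 and 188 CPM. Among them Serpinh1, the collagen chaperone HSP47, stood at 593 CPM (572 to 615) against 4.93 CPM (3.76 to 6.35).

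The 5 lysyl oxidase genes, which crosslink collagen, summed to 570 CPM against 3.29 CPM in leukocyte-marker barcodes. Loxl2 was highest at 382 CPM, followed by Lox at 91.3 CPM, and Loxl1 had 2 UMIs. Among 8 genes of procollagen cleavage, Pcolce2, an enhancer of the C-terminal cleavage, held 230 of the 267 CPM, and the list summed to 2.22 CPM in leukocyte-marker barcodes. The 13 receptor genes summed to 562 and 80.9 CPM. Itgb1, the shared integrin chain, was at 275 CPM and Ddr2, a receptor kinase for fibrillar collagen, at 218 CPM, while Ddr1 had 14 UMIs and Oscar and Adgrg1 none.

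Between conditions, none of the 14 modification genes with enough UMIs was past 2-fold, nor were the 4 folding genes or the 3 receptor genes. Past 2-fold were 3 of the 5 crosslinking and cleavage genes with enough UMIs, against the 1.5% and 1.64% of all genes given above. Lox had 52.0 CPM in OVX against 127 CPM in sham, a ratio of 0.409 (0.299 to 0.552), and Loxl4, another lysyl oxidase, at 84.1 and 31.2 CPM, a ratio of 2.69 (1.85 to 3.98). Pcolce2 was at 145 and 293 CPM, a ratio of 0.495 (0.410 to 0.595). The OVX and sham barcodes with UMIs numbered 12 and 19 for Lox, 13 and 11 for Loxl4 and 24 and 23 for Pcolce2. These 3 ratios were not taken with equal weight per barcode or without the highest barcodes. Serpinh1 was at 595 and 717 CPM, a ratio of 0.829 (0.751 to 0.916), in barcodes whose summed collagen was higher in OVX.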

How the data were processed

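The authors mapped the reads of 1 10x Genomics 3′ v3.1 library to mm10 and deposited UMI counts per gene and barcode with the 2 hashtag antibodies as rows. Cell Ranger is given as 6.0.1 in the submitters' processing notes and as 6.0.0 in the file header, and those notes also name featureCounts 1.5.0-p3. The deposited counts were used without further filtering of barcodes, and 0 columns of unknown samples were present.

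Conditions came from hashtag counts by HTODemux (Seurat 5.3.0, R 4.3.3, centered log ratio, positive quantile 0.99). Counts were summed per class of barcodes in Python 3.11.15 with scipy 1.17.1, with exact Poisson, Clopper-Pearson and conditional binomial 95% intervals, and the limit of a count of 0 was taken as 3 counts. Members were found by symbol, with coordinates from GENCODE M21 (GRCm38) and 35 of 44 matched to RefSeq promoters. Genes needed 50 UMIs for ratios. Named were members with 100 stromal UMIs, those with 10 UMIs in leukocyte barcodes and a ratio interval above that of the sum, those past 2-fold between conditions with separate intervals, the 5 genes most correlated with fibrillar collagen, and examples of the collagen-processing lists. Clustering used scanpy 1.11.5 (counts scaled to 10000, 2000 variable genes, 20 components, 10 neighbors) and igraph 0.11.9 (Louvain, resolution 0.3). Intervals and thinning were tested on simulated data. Members, gene lists and tests were chosen with earlier results of these data known. Alternatives were other thresholds, weights, hashtag rules and single barcodes left out. The bulk RNA experiments of the study are not analysed here.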

Additional observations from a re-analysis of the deposited data

How the results depend on the processing

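The deposited data are 1 library with 1 pool of mice per condition, so differences between pools and conditions cannot be told apart, and intervals cover counting error only. No paired analysis was possible because each condition was a single pool with no replicate number. The cause of each shift below was not tested unless the setting shows it. The stromal collagen share of 0.393% was 0.378% at a Prg4 and Dcn threshold of 0.1% and 0.400% at 2%, 0.375% with equal weight per barcode and 0.387% without the barcode with most collagen UMIs. The level of 152 CPM in the barcodes below the threshold was 63.5 CPM at a threshold of 0.1%, 199.9 CPM at 1% and 295.5 CPM at 2%, 80.9 CPM with equal weight, 50.6 CPM in barcodes with no UMI of Prg4 or Dcn and 42.5 CPM in those with a UMI of Ptprc. It was 37.4 and 37.0 CPM with leukocyte genes at 0.1% and 0.3% or more, which were settings chosen after seeing the data. The OVX over sham ratio of the sum, 1.28, was 1.23 at a threshold of 2%, 1.06 with equal weight and 1.35 under a hashtag rule of 80% or more of at least 10 hashtag UMIs, which gave 26 OVX and 99 sham stromal barcodes. It was 1.24 without the barcode with most collagen UMIs in each condition. Stromal barcodes with no hashtag had medians of 72.5 and 326.5 UMIs of antibodies 1 and 2. Sham barcodes had a median of 74 for antibody 1, and OVX barcodes one of 307.5 for antibody 2. The rule of 80% can therefore count barcodes below both cutoffs as sham. The fibrillar ratio of 1.42 was 1.18 with equal weight and stayed between 1.42 and 1.48 under the other 8 settings. No setting was made to leave out the deepest sham barcode, which had 141565 gene UMIs and no Col2a1 UMI. The summed and fibrillar ratios with only that barcode left out were not taken.

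Counts of genes past 2-fold, 1 in each direction, were 3 higher and 2 lower under the hashtag share rule, 2 lower with a minimum of 20 UMIs, and 6 higher and 2 lower at 1.5-fold. Among genes whose interval excluded 1, the ratio crossed 1 with equal weight for Col6a3 (0.942), Col5a2 (1.05) and Col1a2 (1.30). Without the highest barcodes it crossed 1 for Col10a1 (0.814). Among genes whose interval included 1, Col6a1, Col6a2, Col11a1 and Col27a1 also fell below it with equal weight. Col6a1 and Col11a1 did so without the highest barcodes too. For single genes, equal weight and leaving out the highest barcodes were settings chosen after seeing the data. The highest over lowest cluster ratio of Col2a1, 2.82, was 10.6 with 1000 variable genes and 1.54 with at least 2 clusters asked for, and that of Col1a2, 6.36, was 5.35 and 2.71. For Col10a1 the ratio of 153 was 1.27 with at least 2 clusters, and with 1000 variable genes its lowest cluster had no UMI. The adjusted Rand index of those clusterings against the first one was 0.490 and 0.569.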

Other observations

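Among 392 other genes detected in 25% or more of 178 stromal barcodes thinned to 1000 UMIs, the 5 with the highest Pearson correlation with summed fibrillar collagen were Ell2 (0.228), Cspg4 (0.213), Dcn (0.197), Meg3 (0.188) and Spry2 (0.178), where the thinned barcodes held a mean of 1.66 fibrillar UMIs and Dcn had been used to choose the barcodes. The values are low for counts this sparse and are given as a description. The 5 stromal barcodes over both hashtag cutoffs had the highest summed collagen of the hashtag groups, 5698 CPM (5319 to 6097), with the short-chain genes, Col10a1 and its class, at 911 CPM (763 to 1079). Their 133 Col10a1 UMIs lay in 2 of the 5 barcodes, the deeper with 73002 gene UMIs and Col10a1 at 1507 CPM. Lair1, an inhibitory collagen receptor of leukocytes, had 26 UMIs in 20 of the 2109 leukocyte-marker barcodes (2.14 CPM), and Itga1, the integrin subunit for type IV and type I collagen, had 263 UMIs in 58 of them. Tmem38b, a cation channel of the endoplasmic reticulum whose loss impairs collagen production, was higher in leukocyte-marker barcodes than in stromal ones, at 101 CPM (95.5 to 107) against 6.21 CPM (4.22 to 8.81).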
